A study of Homo sapiens with 6 samples.

Results

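The catalytic subunits of the immunoproteasome (PSMB8, PSMB9 and PSMB10) were set against the constitutive subunits they can replace (PSMB5, PSMB6 and PSMB7), together with the PA28 activator genes PSME1, PSME2 and PSME3 and the maturation factor POMP, in a lung cancer cell line with and without SMARCA4. These 10 genes were found by symbol among 59050 symbols in the gene count tables, and all 10 passed the filter on low counts that 17809 genes passed. RNA-seq was measured in 6 libraries of H2122, a human lung cancer line. The SMARCA4 KO group has 3 libraries and the parental group, whose genotype is given as WT, also has 3. Cells of both groups received vehicle and were grown in RPMI-1640 with fetal bovine serum. All knockout titles carry the number 1, and the parental titles carry 1, 3 and 6. The labels do not say what these numbers mean; if they name clones, the knockout is 1 clone. Nothing in the labels ties the replicates to separate cultures; the p-values therefore reflect library-to-library spread alone, which may be technical.

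The proteasome is the large barrel-shaped protease that degrades ubiquitin-tagged proteins. Its core carries chymotrypsin-like (PSMB5), caspase-like (PSMB6) and trypsin-like (PSMB7) active sites. Interferon-gamma induces PSMB8 (LMP7), PSMB9 (LMP2) and PSMB10 (MECL-1), which take the places of PSMB5, PSMB6 and PSMB7 in newly assembled cores. Such immunoproteasomes cut proteins into peptides that are well suited to presentation on MHC class I, and tumour cells vary widely in how much of them they make.

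Several members are interferon-inducible, and interferon regulatory factors (IRFs) are known to bind repeats of GAAA, so promoter sequences are given before the expression values. An IRF-type motif, GAAA followed by any 2 bases and then GAAA again, was searched on both strands in RefSeq promoter windows (GRCh38.p14), from 250 bases before to 50 bases after each start site, and 8 of the 10 genes had an entry. A match was present in 3.57% of all 35116 windows. Among the members it was found in the windows of PSMB8 (the second of its start sites), PSMB10, PSME1 and PSME2. The stretches below run from position -60 to 20 (position 1 is the first transcribed base and there is no position 0), 5′ to 3′ on the gene's strand, with the matched bases in capitals on whichever strand they match. They are at chr6:32844028-32844107 (minus strand), chr16:67936831-67936910 (minus), chr14:24136134-24136213 (plus) and chr14:24146591-24146670 (minus), in the order listed.
PSMB8, second start: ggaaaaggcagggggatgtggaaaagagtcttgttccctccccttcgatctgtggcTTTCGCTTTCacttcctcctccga
PSMB10: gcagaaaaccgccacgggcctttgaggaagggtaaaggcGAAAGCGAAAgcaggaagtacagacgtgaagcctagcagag
PSME1: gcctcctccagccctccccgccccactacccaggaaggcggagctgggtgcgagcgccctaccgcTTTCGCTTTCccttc
PSME2: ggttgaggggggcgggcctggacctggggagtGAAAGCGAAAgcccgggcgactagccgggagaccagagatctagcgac

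The same 10 letters, GAAAGCGAAA or their complement TTTCGCTTTC, stood in all 4 of these windows. They lay at -4 to 6 in PSMB8, at -21 to -12 in PSMB10, at 6 to 15 in PSME1 and at -28 to -19 in PSME2. The windows of PSMB5 (both start sites), PSMB8 (first start site), PSMB9, PSME3 and POMP held no match. PSMB9 and TAP1, a subunit of the transporter that carries peptides to MHC class I, lie head to head, with RefSeq start sites 488 bp apart. The window of TAP1's first start site held 2 overlapping matches, at -134 to -125 and at -128 to -119, shown here from -150 to -91 (chr6:32853795-32853854, minus strand) beside the stretch of PSMB9 (-60 to 20, chr6:32854132-32854211, plus) and, for a constitutive subunit, those of PSMB5's first and second start sites (-60 to 20, chr14:23035201-23035280 and chr14:23034881-23034960, minus).
TAP1, first start: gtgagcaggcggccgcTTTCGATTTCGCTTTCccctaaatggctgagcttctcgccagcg
PSMB9: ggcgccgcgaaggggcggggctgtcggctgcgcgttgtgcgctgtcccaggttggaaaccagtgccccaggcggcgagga
PSMB5, first start: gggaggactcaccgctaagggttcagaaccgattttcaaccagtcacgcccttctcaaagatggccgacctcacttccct
PSMB5, second start: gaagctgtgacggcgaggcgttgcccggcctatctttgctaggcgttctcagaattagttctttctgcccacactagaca
The motif TTCNNNGAA, known as a gamma-activated site (GAS) and the same on both strands, occurred in 7.66% of all windows. It was found in 2 places in the window of PSMB5's second start site (-158 to -150 and -15 to -7), at -65 to -57 in PSMB8 (second start site), at -230 to -222 in PSME3 and at -189 to -181 in TAP1 (second start site). No other member's window held it, including those of PSMB9, PSMB10, PSME1 and PSME2. The motif TGACNNNGC of antioxidant response elements, searched on both strands, occurred in 13.3% of all windows and was found in PSMB9 (-148 to -140), PSME1 (-86 to -78) and PSME2 (-175 to -167). A match describes the letters of a window and does not show that a factor binds there.

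Gene reads ranged from 55120937 to 59917980 per library, so that 3 reads, taken as the limit of detection, correspond to 0.0501 to 0.0544 CPM (reads scaled to the size of the library). All CPM below are after TMM scaling, and log2 fold changes are SMARCA4 KO less parental with Benjamini-Hochberg adjusted p-values from edgeR's quasi-likelihood test over all 17809 genes. SMARCA4 itself, the ATPase subunit of SWI/SNF chromatin remodelling complexes, had 20.7, 19.3 and 24.9 CPM in the knockout libraries, against 231.5, 214.5 and 335.0 CPM in the parental libraries (log2 fold change -3.59, edgeR adjusted p = 0.000176; -3.41 without parental replicate 3). Parental replicate 3 stood apart from the other parental libraries. The mean chi-square per gene between it and parental replicates 1 and 2 was 409 and 426, compared with 9.08 between replicates 1 and 2 and with 344 to 386 between the knockout libraries and parental replicates 1 and 2. Values without it are therefore given beside the results. Of the carcinoma epithelial markers, 5 of 6 fell, where 14.3% of all genes did. KRT19 fell by 5.40 on the log2 scale, EPCAM fell by 2.32 and CDH1 fell by 5.94 (edgeR adjusted p = 8.98e-06, 0.000102 and 0.000553), with -5.38, -2.29 and -6.36 without parental replicate 3. Their summed level was 3157 to 3422 CPM in the knockout, against 6931 to 7700 CPM in the parental libraries. Lung lineage markers were low, summing to 1.06 to 1.66 CPM in the knockout, against 1.51 to 2.02 CPM in the parental libraries. The most abundant, NAPSA, did not pass (log2 fold change 0.504, edgeR adjusted p = 0.328, and 0.206 without parental replicate 3). SFTA2, which was not tested, had 1, 0 and 1 reads in the knockout, against 16, 4 and 66 reads in the parental libraries. NKX2-1 had 1, 0 and 0 reads in the knockout, against 17, 12 and 8 reads in the parental libraries. It was tested only without parental replicate 3, where it fell (log2 fold change -5.02, edgeR adjusted p = 0.000196).

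PSMB8, the chymotrypsin-like immunoproteasome subunit, fell in the knockout. It had 3.36, 3.70 and 3.48 CPM in the knockout libraries (190, 204 and 210 reads), against 12.9, 13.0 and 35.2 CPM in the parental libraries (737, 777 and 2002 reads). The 3 knockout libraries lay close together, all below every parental library, and parental replicate 3 was far above the other parental libraries. The mean was 3.51 ± 0.174 CPM over the knockout libraries, against 20.4 ± 12.8 CPM over the parental libraries (SD, n = 3 each). The log2 fold change was -2.54 (SE 0.441, 95% interval -3.60 to -1.47, edgeR adjusted p = 0.00801). Without parental replicate 3 the fall was smaller in size, -1.93 (SE 0.09, edgeR adjusted p = 2.22e-09). Leaving out any 1 of the 6 libraries kept the call, with log2 fold changes between -2.78 and -1.93. PSMB8 lies at chr6:32840717-32844703 (GRCh38, GENCODE 29 annotation), in the MHC class II region, and 20.6% of its exon bases are shared with PSMB8-AS1 on the other strand. That antisense gene had 3, 0 and 1 reads in the knockout, against 18, 19 and 29 reads in the parental libraries. PSMB9, on the same strand as PSMB8-AS1, shares 4.6% of the exon bases of PSMB8, and PSMB8-AS1 shares 5.7% of those of PSMB9. Neither strand setting nor overlap mode of the counting is given, so reads of these genes in shared bases cannot be told apart. In bulk RNA, fewer cells of a type and less RNA per cell cannot be told apart.

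PSMB10, the trypsin-like immunoproteasome subunit, was also lower in the knockout, at a level near the lower end of what these libraries measure well. Its reads numbered 26, 31 and 32 in the knockout libraries (0.460, 0.563 and 0.530 CPM), against 49, 63 and 108 reads in the parental libraries (0.858, 1.05 and 1.90 CPM). The groups did not overlap. The log2 fold change was -1.29 (SE 0.346, 95% interval -2.13 to -0.453, edgeR adjusted p = 0.0366), and -0.933 without parental replicate 3 (edgeR adjusted p = 0.00411). The call was lost without knockout replicate 1 (edgeR adjusted p = 0.136), knockout replicate 2 (0.111), knockout replicate 3 (0.121) or parental replicate 2 (0.0578), with the log2 fold change between -1.42 and -1.21. PSMB10 lies at chr16:67934502-67937087, and AC040162.1 shares 34.8% of its exon bases on the same strand. AC040162.1 had 33, 29 and 35 reads in the knockout, against 12, 13 and 22 reads in the parental libraries, the opposite direction to PSMB10. How reads in shared bases were counted is not given, so reads of the pair there cannot be told apart. The part of this overlap in the PSMB10 difference was not tested.

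PSMB9, the immunoproteasome subunit that replaces the caspase-like PSMB6 (chr6:32844136-32859585), did not pass the test. Its reads numbered 26, 18 and 15 in the knockout libraries (0.460, 0.327 and 0.248 CPM), against 26, 38 and 84 reads in the parental libraries (0.455, 0.636 and 1.48 CPM). Knockout replicate 1 and parental replicate 1 had the same number of reads, so the groups overlapped. The log2 fold change was -1.31 (SE 0.512, 95% interval -2.55 to -0.066, edgeR adjusted p = 0.112), and -0.717 without parental replicate 3 (edgeR adjusted p = 0.0743). The unadjusted interval thus ran from a large fall to almost no difference. Of its 3 subunits, the immunoproteasome therefore had 2 that fell and 1 that did not pass. Over all genes tested, 27.6% changed at this threshold and 14.3% fell.

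**Figure D1:**
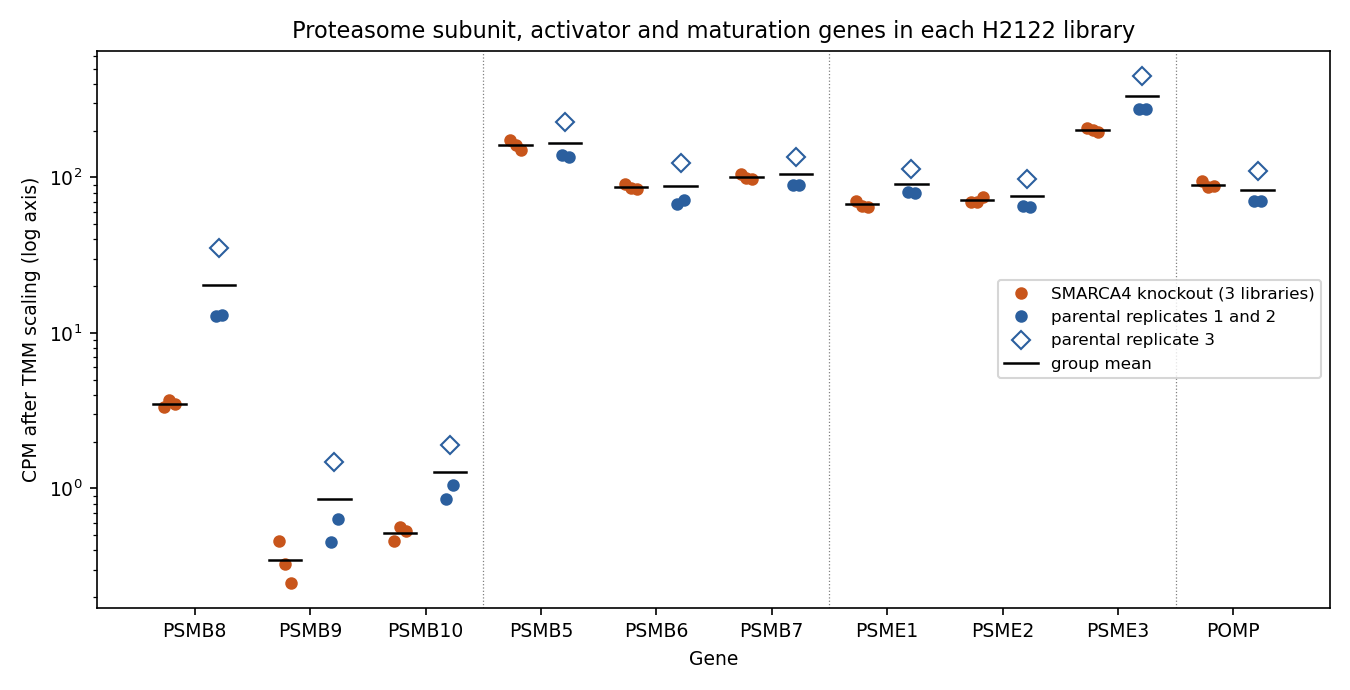
CPM after TMM scaling (log axis) of the 10 genes in each library, with the knockout left of the parental group; orange points are the 3 knockout libraries, blue points parental replicates 1 and 2, open diamonds parental replicate 3, and black lines group means. PSMB8 shows the widest gap between groups, PSMB9 and PSMB10 lie below 2 CPM in every library, and the open diamond is the highest parental value for each gene.

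The constitutive catalytic subunits were expressed at high level in both groups, and none of the 3 passed the test. PSMB5, the chymotrypsin-like subunit (chr14:23016543-23035230), had 174.8, 160.7 and 151.1 CPM in the knockout libraries, against 138.6, 135.4 and 225.8 CPM in the parental libraries. The knockout values fell between those of parental replicates 1 and 2 and that of parental replicate 3. Its log2 fold change was -0.039 (95% interval -0.571 to 0.494, edgeR adjusted p = 0.916). PSMB6, the caspase-like subunit (chr17:4796144-4798503), had 90.8, 86.1 and 83.7 CPM in the knockout, against 68.0, 71.6 and 123.9 CPM in the parental libraries (log2 fold change -0.016, 95% interval -0.605 to 0.573, edgeR adjusted p = 0.971). PSMB7, the trypsin-like subunit (chr9:124353466-124415444), had 105.0, 99.2 and 98.4 CPM in the knockout, against 90.05, 89.4 and 135.0 CPM in the parental libraries (log2 fold change -0.055, 95% interval -0.495 to 0.385, edgeR adjusted p = 0.852). At an unadjusted p under 0.05 the count was also 0 of 3 with edgeR, and DESeq2 and limma-voom called 0 of 3. These intervals exclude a fall as large as that of PSMB8.

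All 3 constitutive subunits had the same arrangement of values, with parental replicate 3 on top, the knockout libraries in the middle and parental replicates 1 and 2 at the bottom. Without parental replicate 3 they all rose, where 61.6% of all genes changed and 30.8% rose. The log2 fold changes were then 0.195 for PSMB5 (edgeR adjusted p = 0.00651), 0.267 for PSMB6 (0.000490) and 0.121 for PSMB7 (0.0326). These small rises depended in part on scaling: with RLE factors PSMB7 no longer passed (0.095, edgeR adjusted p = 0.124), while PSMB5 and PSMB6 did. The falls of PSMB8 and PSMB10 without that library passed under RLE and upper-quartile factors as well.

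A ratio of paired genes within a library does not depend on the scaling between libraries. The log2 ratio of PSMB8 to PSMB5 reads was -5.70, -5.44 and -5.44 in the knockout libraries, against -3.42, -3.38 and -2.68 in the parental libraries. This ratio was 5.15-fold lower in the knockout (difference -2.37, SE 0.256) and 4.36-fold lower without parental replicate 3. The log2 ratio of PSMB9 to PSMB6 was -7.63, -8.04 and -8.40 in the knockout, against -7.22, -6.81 and -6.39 in the parental libraries (difference -1.21, SE 0.328; 2.32-fold lower in the knockout, or 2.005-fold without parental replicate 3). PSMB9 had 26 reads in both knockout replicate 1 and parental replicate 1, while PSMB6 had 5133 and 3881 reads. Unlike the CPM of PSMB9, the ratio of PSMB9 to PSMB6 did not overlap between groups. Its counting error is wide, however: PSMB9 made up 0.504% of the PSMB9 and PSMB6 reads of knockout replicate 1 (95% Wilson interval 0.344 to 0.737%) and 0.666% in parental replicate 1 (0.454 to 0.973%). The log2 ratio of PSMB10 to PSMB7 was -7.84, -7.46 and -7.54 in the knockout, against -6.71, -6.41 and -6.15 in the parental libraries (difference -1.19, SE 0.199; 2.28-fold lower in the knockout, or 2.07-fold without parental replicate 3). Such intervals cover counting error only.

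Across the 3 catalytic pairs, the mean log2 ratio of immunoproteasome to constitutive subunit was -7.05, -6.98 and -7.13 in the knockout libraries, against -5.79, -5.53 and -5.07 in the parental libraries. The difference was -1.59 (SE 0.213), a 3.01-fold lower ratio in the knockout, and -1.39 without parental replicate 3. Each of the ratios separated the groups. Of all genes tested, 49.8% had CPM that did not overlap between groups, and no such share was taken for ratios. Each exact permutation test gave p = 0.1 (two-sided), the smallest that 3 against 3 libraries allow. Adjusted over the 5 pairs compared, including those of PA28 below, it was also 0.1. On leaving out 1 library, the permutation p reached 0.2 for PSMB9 to PSMB6 and stayed at 0.1 for the other ratios. Set against the mean of the 11 non-catalytic core subunits, an alternative chosen after seeing the data, the differences were -2.28 for PSMB8, -1.09 for PSMB9 and -1.13 for PSMB10.

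**Figure D2:**
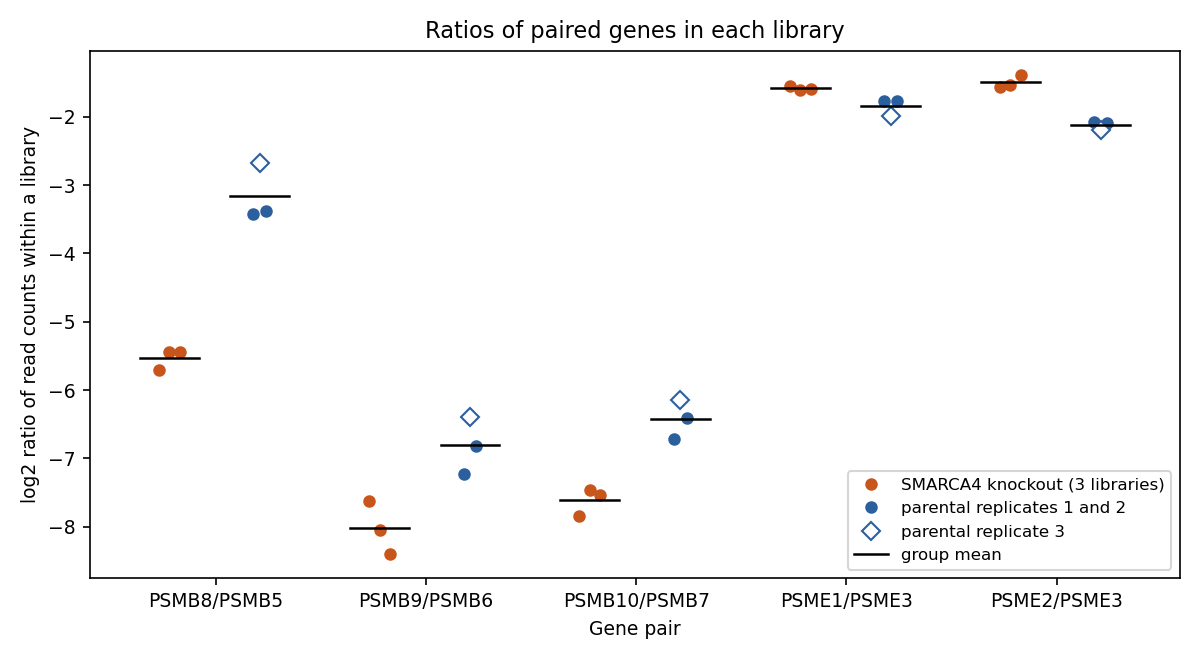
The log2 ratio of read counts of paired genes within each library, with the knockout (orange) left of the parental group (blue; the open diamond is parental replicate 3) and black lines for group means. The 3 immunoproteasome to constitutive ratios are lower in every knockout library than in any parental library, and the 2 PA28 ratios are higher in every knockout library.

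Levels can be compared between genes only per length of exon. As CPM per kilobase, the immunoproteasome subunits made up 0.684, 0.792 and 0.764% of the summed level of the 6 catalytic subunits in the knockout libraries, against 2.72, 2.82 and 4.38% in the parental libraries (means 0.747 ± 0.0562% in the knockout, against 3.31 ± 0.932% in the parental group, SD, n = 3 each). The constitutive subunits thus made up nearly all of the catalytic transcripts in every library. The difference was -2.56 percentage points, or -2.03 without parental replicate 3 (exact permutation p = 0.1 with all libraries). Within the immunoproteasome the subunits were far from equal. PSMB8 was 7.49, 11.6 and 14.4 times PSMB9 per kilobase in the knockout, against 29.1, 20.96 and 24.4 times in the parental libraries. It was 4.52, 4.07 and 4.06 times PSMB10 in the knockout, against 9.30, 7.63 and 11.5 times in the parental libraries. PSMB8 was thus the most abundant of the 3 in both groups. The lengths used include bases shared with other genes, 34.8% for PSMB10 with AC040162.1 and 20.6% for PSMB8 with PSMB8-AS1. How reads in such bases were counted is not given, so these levels and shares are approximate.

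By mean CPM per kilobase, the knockout order was PSMB5 (91.9), POMP (62.9), PSMB6 (59.99), PSMB7 (56.5), PSME3 (39.2), PSME1 (37.8), PSME2 (19.9), PSMB8 (1.17), PSMB10 (0.279) and PSMB9 (0.112). The ranges of POMP and PSMB6, of PSMB6 and PSMB7, and of PSME3 and PSME1 overlapped, and the other neighbours were separate. In the parental group the order was PSMB5 (94.4), PSME3 (64.6), PSMB6 (60.7), PSMB7 (58.6), POMP (58.5), PSME1 (51.4), PSME2 (21.2), PSMB8 (6.80), PSMB10 (0.686) and PSMB9 (0.279). There the ranges of the first 6 overlapped from neighbour to neighbour, as did those of PSMB10 and PSMB9. PSME2 and PSMB8 were separate from their neighbours in both groups. These orders rest on the summed length of all annotated exons, and the upper ranks depend on that choice. This length and that of the longest transcript were 1448 and 871 bases for PSMB6 and 1787 and 980 bases for PSMB7. For POMP both were 1428 bases.

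PA28 activators cap the core and open its gate. PSME1 and PSME2 encode the alpha and beta subunits of the interferon-inducible cytosolic PA28, and PSME3 encodes the nuclear PA28 gamma. PSME3 (chr17:42824385-42843758) had 208.1, 201.6 and 195.6 CPM in the knockout, against 275.8, 273.9 and 449.0 CPM in the parental libraries. The groups did not overlap, but the log2 fold change of -0.722 (SE 0.214, 95% interval -1.24 to -0.203) narrowly missed the threshold with edgeR (adjusted p = 0.0508). It passed without parental replicate 3 (-0.495, edgeR adjusted p = 4.54e-07) and with DESeq2 (-0.776, adjusted p = 0.00909). PSME1 (chr14:24136158-24138967) had 71.1, 65.9 and 64.9 CPM in the knockout, against 81.1, 80.0 and 113.2 CPM in the parental libraries. These groups did not overlap either. Its log2 fold change was -0.443 (SE 0.159, edgeR adjusted p = 0.0896), with a pass without parental replicate 3 (-0.309, edgeR adjusted p = 0.000132) and with DESeq2 (-0.498, adjusted p = 0.0484). PSME2 (chr14:24143362-24147570) had 70.0, 69.3 and 74.9 CPM in the knockout, against 65.5, 64.3 and 98.2 CPM in the parental libraries. Its groups overlapped, and its log2 fold change was -0.091 (95% interval -0.535 to 0.354, edgeR adjusted p = 0.754), or 0.09 without parental replicate 3 (edgeR adjusted p = 0.174; with upper-quartile factors in place of TMM it then passed as a rise, 0.163, edgeR adjusted p = 0.0192).

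The proportions of the PA28 subunits were compared within each library. The log2 ratio of PSME1 to PSME3 was -1.55, -1.61 and -1.59 in the knockout, against -1.76, -1.77 and -1.99 in the parental libraries (difference 0.258, SE 0.0749; 0.185 without parental replicate 3). The log2 ratio of PSME2 to PSME3 was -1.57, -1.54 and -1.39 in the knockout, against -2.07, -2.09 and -2.19 in the parental libraries (difference 0.620, SE 0.0686; 0.583 without parental replicate 3). Both ratios were higher in every knockout library. Against the 11 non-catalytic core subunits instead of PSME3, PSME1 was lower in the knockout (difference -0.338), and PSME2 differed by 0.024. POMP (chr13:28659104-28678925), the chaperone that helps to assemble the core and is used for both core types, had 94.3, 87.5 and 87.6 CPM in the knockout, against 70.3, 71.1 and 109.4 CPM in the parental libraries. Its groups overlapped and it did not pass (log2 fold change 0.103, 95% interval -0.362 to 0.568, edgeR adjusted p = 0.732). It rose without parental replicate 3, by 0.296 on the log2 scale (edgeR adjusted p = 0.000172).

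Over the 10 genes, 2 passed with all libraries, both of them falls, where 27.6% of all genes changed. Groups were separate for 4 of the 10 (PSMB8, PSMB10, PSME1 and PSME3), compared with 49.8% of all genes tested. Without parental replicate 3, 8 of the 10 passed, 4 higher in the knockout (PSMB5, PSMB6, PSMB7 and POMP) and 4 lower (PSMB8, PSMB10, PSME1 and PSME3), where 61.6% of all genes did. PSMB9 and PSME2 were the other two. The median log2 fold change of all genes was 0.0186, and 0.0356 without parental replicate 3.

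The rest of the proteasome was read from 43 further genes. With all libraries 0 of 43 passed the edgeR test, where 27.6% of all genes did, 4 had an unadjusted p under 0.05, DESeq2 called 3 and limma-voom 0. Their median log2 fold change was -0.241, with a lowest value of -0.660 (PSMD6, a subunit of the lid) and a highest of 0.269 (PSMD7, another lid subunit), so the fall of PSMB8 lay outside the range of these genes. Medians were -0.190 for the 7 alpha ring genes, -0.15 for the 4 non-catalytic beta genes, -0.264 for the 10 genes of the base of the 19S cap, -0.300 for the 9 genes of its lid, -0.111 for the 8 assembly chaperones and -0.259 for 5 other regulators. For 12 of the 43 the groups were separate, compared with 49.8% of all genes. Among the most abundant of each list, PSMA7 of the alpha ring averaged 207.3 ± 8.11 CPM in the knockout, against 219.4 ± 44.9 CPM in the parental group, and PSMB4 of the beta ring 251.9 ± 12.8 CPM in the knockout, against 215.4 ± 29.5 CPM in the parental group (SD, n = 3 each). The other most abundant genes had log2 fold changes of -0.275 (PSMA4), -0.276 (PSMB2), -0.241 (PSMD2), -0.031 (PSMC5), -0.357 (PSMD11), -0.268 (PSMD8), 0.191 (PSMG3), -0.285 (PSMG1), 0.075 (ECPAS) and -0.259 (PSMF1). Without parental replicate 3, 9 of the 43 rose and 13 fell, where 30.8% of all genes rose and 30.8% fell, with a median of 0.0140. PSMB11 and PSMA8, core subunits of thymus and testis, had 0 reads in all libraries.

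**Figure D3:**
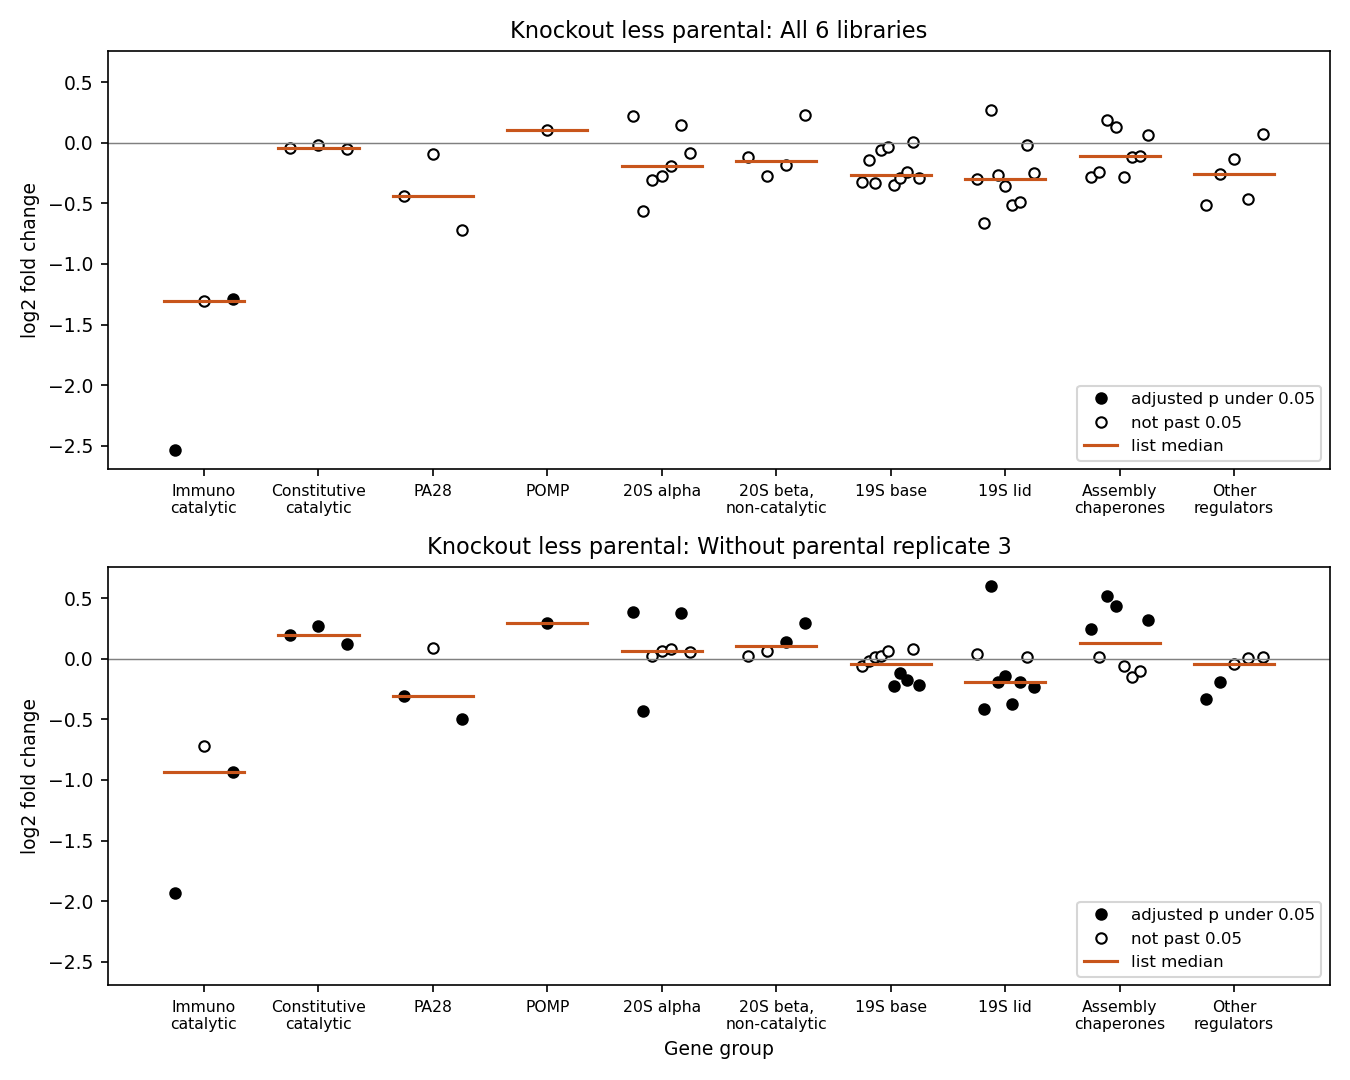
Log2 fold changes, knockout less parental, of each proteasome gene by group (points) with group medians (orange lines), for all libraries above and without parental replicate 3 below; filled points have an edgeR adjusted p under 0.05. In both panels the 3 immunoproteasome catalytic subunits lie lowest, at -1.29 or below with all libraries, while no gene outside the members lies below -0.66.

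Much of the spread in the parental group came from parental replicate 3, in which nearly the whole proteasome was higher. Relative to the mean of parental replicates 1 and 2, its log2 level was 0.721 for PSMB5, 0.828 for PSMB6 and 0.589 for PSMB7. The immunoproteasome subunits differed more, by 1.44 for PSMB8, 1.44 for PSMB9 and 0.990 for PSMB10. The values were 0.490 for PSME1, 0.597 for PSME2, 0.708 for PSME3 and 0.629 for POMP. Of the 43 other proteasome genes 42 were higher in that library, with a median of 0.590 and ECPAS (-0.031) as the exception, while 49.6% of all genes tested were higher in it and the median of all genes was -0.006. As a comparison of 1 library with 2, these are values with no test. NFE2L1 (NRF1), the transcription factor known to drive proteasome genes when proteasome activity is short, had 206.0 CPM in parental replicate 3, against 417.8 and 410.3 CPM in parental replicates 1 and 2. Its part in the higher proteasome transcripts of that library was not tested.

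**Figure D4:**
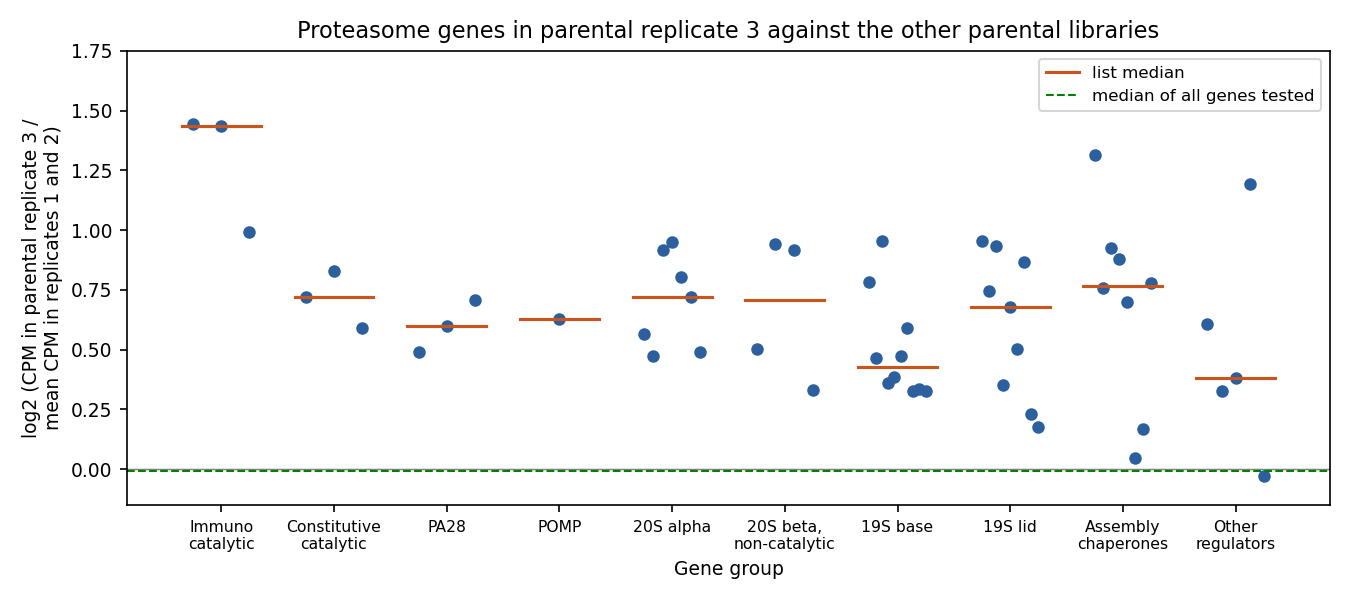
Log2 ratio of CPM in parental replicate 3 to the mean CPM of parental replicates 1 and 2 for each proteasome gene by group (points), with group medians (orange lines) and the median of all genes tested (green dashed line, -0.006). All points but that of ECPAS lie above 0, and PSMB8 and PSMB9 (1.44 each) lie highest.

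NFE2L1 had 522.2, 513.3 and 494.6 CPM in the knockout libraries, all above the parental ones, with a log2 fold change that did not pass (0.565, edgeR adjusted p = 0.184) unless parental replicate 3 was left out (0.252, edgeR adjusted p = 0.000163). DDI2, the protease that cleaves NRF1 into its active form, fell: it had 54.4, 52.9 and 48.5 CPM in the knockout, against 81.7, 76.8 and 67.4 CPM in the parental libraries (log2 fold change -0.535, edgeR adjusted p = 0.0150; -0.658 without parental replicate 3). It was the 1 of 4 genes of the NRF1 pathway that passed, 2 having an unadjusted p under 0.05; 27.6% of all genes passed. Its call was lost without knockout replicate 1 (edgeR adjusted p = 0.0632), 2 (0.0761) or 3 (0.0787) or parental replicate 1 (0.0541). Among 5 ubiquitin genes 1 passed, where 13.3% of all genes rose: UBB rose (526.8 ± 23.5 CPM in the knockout, against 376.4 ± 42.3 CPM in the parental group, SD, n = 3 each; log2 fold change 0.485, edgeR adjusted p = 0.0297; 0.533 without parental replicate 3), and this call was lost on leaving out any library but parental replicate 3, with adjusted p up to 0.125.

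The factors known to induce immunoproteasome genes were described beside them. IRF1, which binds the promoters of immunoproteasome genes, had 20.3, 18.9 and 20.7 CPM in the knockout, against 32.7, 34.9 and 24.1 CPM in the parental libraries (log2 fold change -0.614, edgeR adjusted p = 0.0339; -0.806 without parental replicate 3). IRF2, a related factor that shares many of its sites, had 17.5, 18.1 and 16.2 CPM in the knockout, against 24.3, 23.0 and 23.8 CPM in the parental libraries (log2 fold change -0.456, edgeR adjusted p = 0.0199; -0.502 without parental replicate 3). Both fell, and their groups did not overlap. Both calls were lost on leaving out any library but parental replicate 3, with adjusted p of 0.0932 to 0.138 for IRF1 and 0.0518 to 0.0979 for IRF2. In parental replicate 3, where PSMB8 was highest, IRF1 was the lowest of the parental libraries, while NLRC5 (below) was the highest. NLRC5, the MHC class I transactivator, averaged 6.54 ± 1.38 CPM in the knockout, against 9.99 ± 4.78 CPM in the parental libraries (SD, n = 3 each; log2 fold change -0.611, edgeR adjusted p = 0.263; -0.201 without parental replicate 3). Of the 6 inducers tested 2 fell and none rose, where 14.3% of all genes fell. Of these 6, 3 were higher in parental replicate 3 than in the mean of parental replicates 1 and 2. NLRC5 was among them, with 15.4 CPM there, against 6.34 and 8.24 CPM in parental replicates 1 and 2. The part of these factors in the PSMB8 level of that library was not tested.

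Of 9 genes for class I molecules and their peptide supply, 6 fell, 0 rose and 3 did not pass, with a median log2 fold change of -0.648, where 14.3% of all genes fell and 13.3% rose. With parental replicate 3 left out, 6 fell and 2 rose, where 30.8% of all genes fell and 30.8% rose. HLA-B, a class I heavy chain, fell by 1.87 on the log2 scale (edgeR adjusted p = 0.00200; -2.14 without parental replicate 3), and B2M, the light chain that all class I molecules share, fell by 0.648 (edgeR adjusted p = 0.00598; -0.644 without parental replicate 3). TAP2, the partner of TAP1 in the peptide transporter, fell: it had 17.6, 17.9 and 16.6 CPM in the knockout, against 32.7, 33.0 and 51.3 CPM in the parental libraries (log2 fold change -1.17, edgeR adjusted p = 0.00760; -0.97 without parental replicate 3). These 3 calls held on leaving out any 1 library. AL669918.1, a protein-coding gene, shares 32.3% of the exon bases of TAP2 on the same strand, and how reads in shared bases were counted is not given. TAP1 had 43.7, 44.0 and 43.0 CPM in the knockout, against 35.3, 38.6 and 44.8 CPM in the parental libraries, and did not pass (log2 fold change 0.139, edgeR adjusted p = 0.430). It passed as a rise without parental replicate 3 (0.189, edgeR adjusted p = 0.0117). TAP1, TAP2, PSMB8 and PSMB9 are neighbours in the MHC class II region; of these PSMB8 and TAP2 fell with all libraries, while TAP1 and PSMB9 did not pass.

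Immune cells express immunoproteasome genes strongly, so markers of other cell types were read. PTPRC, which marks all leukocytes, had 0 reads in all 6 libraries. Of 10 haematopoietic markers 4 were tested and 3 fell, where 14.3% of all genes fell. These were LCP1, CD79A and LYZ, with log2 fold changes of -2.28, -2.51 and -2.62 (edgeR adjusted p = 0.00141, 0.00446 and 0.00455; -2.56, -2.49 and -2.90 without parental replicate 3). CD79A and LYZ had few reads and lay near the limit of detection in the knockout. CD79A had 3, 2 and 5 reads in the knockout, against 22, 16 and 21 reads in the parental libraries. LYZ had 5, 5 and 4 reads in the knockout, against 40, 30 and 19 reads in the parental libraries. The list summed to 16.6 to 17.6 CPM in the knockout, against 53.5 to 99.1 CPM in the parental libraries, most of it LCP1, an actin-bundling protein that carcinoma cells can also express (on average 16.4 CPM in the knockout, against 79.4 CPM in the parental libraries). Fibroblast markers summed to 53.4 to 58.1 CPM in the knockout, against 39.3 to 110.1 CPM in the parental libraries, and of the 3 tested 2 rose and 1 fell. LUM rose by 6.18 and COL3A1 by 5.00 on the log2 scale (edgeR adjusted p = 8.98e-06 and 0.00562; 6.10 and 6.78 without parental replicate 3), and COL1A1 fell by 1.46 (edgeR adjusted p = 0.0408; -0.893 without parental replicate 3), a call lost without any 1 knockout library (edgeR adjusted p = 0.123 to 0.137). Endothelial markers summed to 0.926 to 1.40 CPM in the knockout, against 0.510 to 0.560 CPM in the parental libraries, and 1 of 2 tested, CDH5, rose by 2.74 on the log2 scale (edgeR adjusted p = 0.0147; 2.22 without parental replicate 3), a call lost without knockout replicate 1 (edgeR adjusted p = 0.0607), knockout replicate 3 (0.0641) or parental replicate 1 (0.0561). Whether other cells had a part in the PSMB8 difference was not tested beyond these markers.

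The genes whose log2 CPM followed PSMB8 most closely over the 6 libraries, among 9654 genes of at least 10 CPM on average, were AP3D1 and ZNF714 (Pearson r = 0.9995 each) and AP1S1 (r = 0.9991). For PSMB9 they were INTS5 (0.9959), GNL1 (0.9939) and SFT2D1 (0.9928), and for PSMB10 they were GPN2 (0.9958), CTSA (0.9945) and GTF3C5 (0.9925). These correlations describe 6 libraries in 2 groups, are the highest of many, and carry no test. They leave out the size of a change. AP3D1, ZNF714, AP1S1 and GTF3C5 had log2 fold changes of -0.349, -0.844, -1.96 and -1.04, against -2.54 for PSMB8 and -1.29 for PSMB10. INTS5, GNL1, SFT2D1, GPN2 and CTSA did not pass (edgeR adjusted p = 0.158, 0.697, 0.174, 0.125 and 0.118). Without parental replicate 3, GNL1 alone of these still did not pass (edgeR adjusted p = 0.212).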

How the data were processed

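Total RNA of 3 SMARCA4 KO and 3 parental H2122 samples was sequenced. Each deposited file holds raw read counts per gene symbol. TopHat2 2.1.1, HTSeq 0.11.0 and hg38 are named in the submitters' processing notes. The labels give neither annotation release nor strand setting nor overlap mode. The 5 classes of unassigned reads (13.8 to 15.3% of each file) were kept out of library sizes. No 2 libraries agreed within sampling noise.

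After filterByExpr and TMM scaling, counts were tested in R 4.3.3 with edgeR 4.0.16 (its quasi-likelihood test with robust estimation, two-sided and with group as the single term, Benjamini-Hochberg over 17809 genes, threshold 0.05), after a check on simulated data. Standard errors were derived from F. DESeq2 1.42.0, limma-voom 3.58.1, other scalings and filters, a replicate block and leaving out each library were alternatives. Levels per kilobase used the exon lengths of GENCODE 29 (GRCh38). Within-library ratios used the exact permutation test. Promoter windows are RefSeq's for GRCh38.p14; a window could be shown for 8 of the 10 genes.

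Named genes are the 10 members, SMARCA4, up to 3 passing genes of each other list with the smallest adjusted p (or, in lists with no passing gene, the 2 most abundant by CPM), TAP1, IRF1, NLRC5 and NFE2L1, the 3 genes most like each immunoproteasome subunit, and overlapping, antisense or pseudogene neighbours. PSMD6, PSMD7, NKX2-1 and the genes of parental replicate 3 were named after their values were seen. The result of 1 gene that this rule also names is not reported here, though it remains in the counts. The members and lists were chosen with earlier results of these data known.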

Additional observations from a re-analysis of the deposited data

How the results depend on the processing

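PSMB8 kept its direction and its call under every alternative run. The low counts of PSMB9 and PSMB10 limit their precision, and a filter of at least 1 CPM in 3 libraries removed both. Genes changed numbered 4912, against 3040 with the replicate block and 2692 to 11325 on leaving out 1 library. Replicate numbers gave no sign of pairing (correlations of same-numbered deviations -0.049, 0 and -0.074, against -0.149 to 0.141 for other numberings). With 3 libraries per group this check is weak. Under the replicate block PSMB10 lost its call (-1.22), and PSMB5 (0.003) and PSMB6 (0.041) reversed. A ratio's block test cannot go below 0.25.

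Other reversals of non-passing log2 fold changes, whose cause was not tested, were PSMB5 (upper-quartile factors 0.016, limma-voom 0.001), PSMB6 (upper-quartile 0.040, 1 CPM filter 0.005, limma-voom 0.039) and PSMC5 (upper-quartile 0.020). Leaving out 1 library gave -0.173 to 0.195 for PSMB5, -0.174 to 0.267 for PSMB6, -0.163 to 0.121 for PSMB7, -1.51 to -0.933 for PSMB10, -0.535 to -0.309 for PSME1, -0.203 to 0.090 for PSME2, -0.850 to -0.495 for PSME3 and -0.011 to 0.296 for POMP, -0.169 to 0.052 for PSMA7, -0.455 to 0.066 for PSMA4, -0.446 to 0.062 for PSMB2, -0.102 to 0.061 for PSMC5 and -0.511 to 0.245 for PSMG1. PSME1 passed with DESeq2 (-0.498), and PSME3 with RLE (-0.770) and upper-quartile factors (-0.668), no filter (-0.779) and DESeq2 (-0.776).

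Counts of list genes changed moved as follows. The lid had 1 with RLE, 2 with no filter, 2 with DESeq2 and 0 to 7 on leaving out 1 library. All 43 other proteasome genes had 1, 2, 3 and 0 to 22 under the same settings. Other regulators had 1 with DESeq2. The NRF1 pathway had 2 with upper-quartile factors. Inducers had 1 with upper-quartile factors and 0 with the block. Ubiquitin genes had 0 with no filter and 0 with the block. Leaving out 1 library gave 0 to 3 (alpha ring and NRF1 pathway), 0 to 2 (beta, other regulators and inducers), 0 to 4 (base and chaperones), 3 to 8 (class I supply) and 0 to 5 (ubiquitin). Without parental replicate 3, RLE and upper-quartile factors were also run, an alternative chosen after seeing the data. PSMB5, PSMB6, PSMB7 and PSME2 kept the sign that TMM gave without that library, opposite to TMM with all libraries. With RLE and upper-quartile factors the values were 0.169 and 0.269 for PSMB5 and 0.241 and 0.341 for PSMB6. They were 0.095 and 0.195 for PSMB7 and 0.063 and 0.163 for PSME2 (which passed with upper-quartile factors). PSME1 (-0.335 and -0.235), PSME3 (-0.521 and -0.421) and POMP (0.27 and 0.37) passed with both. The ratio of PSME1 to PSME3 reversed against the 20S core (-0.338), also chosen after seeing the data.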
